A study of Mus musculus with 4 samples.

Results

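The enzymes that build sterols and fatty acids, with the genes that control them, are described here across 4 RNA-seq libraries of mouse blood progenitor colonies. The 35 genes were taken by symbol from a list chosen with earlier results of these data known. Of these, 18 encode steps toward cholesterol, 11 encode steps toward fatty acids and 6 encode regulators or sterol transport. All 35 were among the 14323 genes measured, and all 35 passed the expression filter of a mean normalized count of at least 1. The list does not hold every enzyme of either route.

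The colonies came from a mouse model of strain C57BL/6 in which 4-hydroxytamoxifen (4OHT) induces MLL-ENL, a leukaemia fusion of the genes MLL and ENL. Short-term haematopoietic stem cells (ST-HSCs), which rebuild blood for a limited time, and MPP2 cells, multipotent progenitors biased toward megakaryocytes and erythroid cells, were plated at 100 cells in 1 ml of 1% methylcellulose. For 5 to 7 days they grew with SCF at 25 ng/ml and IL-6, IL-3 and GM-CSF at 10 ng/ml each, with 0.05 µM 4OHT in ethanol or with ethanol alone. The 4 groups were therefore ST-HSC with ethanol, ST-HSC with 4OHT, MPP2 with ethanol and MPP2 with 4OHT. Each group had 1 library, of 12907412 to 14317891 recovered reads. The labels mark both 4OHT cultures as expressing MLL-ENL and both ethanol cultures as controls, so the effect of 4OHT itself and that of the fusion cannot be told apart. The promoter that drives the fusion, the switch that 4OHT acts on, and the age and number of the mice, are not stated in the labels.

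Animal cells make cholesterol from acetyl-CoA through mevalonate, farnesyl pyrophosphate, squalene and lanosterol, and make fatty acids from the same acetyl-CoA through malonyl-CoA. Both routes are switched on by SREBP transcription factors, which sit in the endoplasmic reticulum bound to the escort SCAP. When sterols are scarce SCAP carries them to the Golgi for release by cutting, and when sterols are plentiful INSIG proteins hold SCAP back. Dividing blood progenitors draw on both routes for new membranes.

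SREBP factors bind a short sterol regulatory element near the start of their target genes, often beside sites of the factors NF-Y and SP1. Promoter windows from RefSeq (GRCm38.p6, 250 bases before to 50 bases after a start) matched 28 of the 35 genes, in 37 windows. The first window below is the only one of these with the element TCACNCCAC. The others belong to the genes with the lowest mean 4OHT difference among those with a window, and were chosen after the values were seen. Capitals mark matches on either strand to TCACNCCAC (sterol regulatory element), CACGTG (E-box), CCAAT (NF-Y) and GGGCGG (SP1). No matches overlap in these windows, and Elovl6 holds none of the 4 motifs.
Hmgcs1, chr13:119690101-119690400, plus strand: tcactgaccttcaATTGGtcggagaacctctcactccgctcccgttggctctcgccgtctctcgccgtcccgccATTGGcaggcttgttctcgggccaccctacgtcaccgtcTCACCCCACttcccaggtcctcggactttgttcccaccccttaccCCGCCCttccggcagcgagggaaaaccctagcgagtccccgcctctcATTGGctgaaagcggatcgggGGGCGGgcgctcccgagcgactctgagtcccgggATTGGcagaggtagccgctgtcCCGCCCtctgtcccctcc
Acss2, chr2:155517793-155518092, plus strand: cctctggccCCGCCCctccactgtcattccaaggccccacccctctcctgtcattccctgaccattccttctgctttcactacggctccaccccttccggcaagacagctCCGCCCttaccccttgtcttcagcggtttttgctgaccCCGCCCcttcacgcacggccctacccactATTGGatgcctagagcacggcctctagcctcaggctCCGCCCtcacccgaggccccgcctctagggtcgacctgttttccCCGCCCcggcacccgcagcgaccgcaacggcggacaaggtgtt
Elovl6, chr3:129532136-129532435, plus strand: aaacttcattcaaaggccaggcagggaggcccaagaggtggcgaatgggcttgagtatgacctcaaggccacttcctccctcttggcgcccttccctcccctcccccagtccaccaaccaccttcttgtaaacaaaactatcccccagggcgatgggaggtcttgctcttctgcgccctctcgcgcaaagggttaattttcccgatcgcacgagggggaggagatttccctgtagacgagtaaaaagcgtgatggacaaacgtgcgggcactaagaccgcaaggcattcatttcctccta

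In the Hmgcs1 window the element reads TCACCCCAC, from 137 to 129 bases before the start. Across the 37 windows 1 held TCACNCCAC (2.7%, against 1.24% of all 32851 windows), and 7 held CACGTG (18.9% against 7.15%). CCAAT was in 24 windows (64.9% against 37.4%) and GGGCGG in 27 (73% against 35.7%). These are letter matches in short windows, given without a test.

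Nearly all 35 genes stood lower with 4OHT in ST-HSC colonies, and most stood lower in MPP2 colonies. In ST-HSC colonies 33 of 35 were below the ethanol level, where 50.6% of all tested genes were, and in MPP2 colonies 30 of 35, where 50.2% were. In both cell types 29 of 35 were lower, against 31.4% of all tested genes. The genes above the ethanol level were 2 in ST-HSC (49.3% of all tested genes) and 5 in MPP2 colonies (49.7%), with 1, Scap, in both (30.4%). Most differences were modest. With 4OHT, 3 of 35 genes were at least 2-fold lower in ST-HSC colonies (0.545% of all tested genes) and 0 in MPP2 colonies (1.7%). None of the 35 was at least 2-fold higher in ST-HSC colonies (2.1% of all tested genes) or in MPP2 colonies (1.32%). Levels are normalized counts, and a constant of 0.5 was added to each before the log2 difference. With 1 library per group these differences have no replicate check. Because the list was chosen with earlier results of these data known, the counts against all tested genes are a description. The intervals beside ratios are 95% counting intervals, which cover counting error only.

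**Figure D1:**
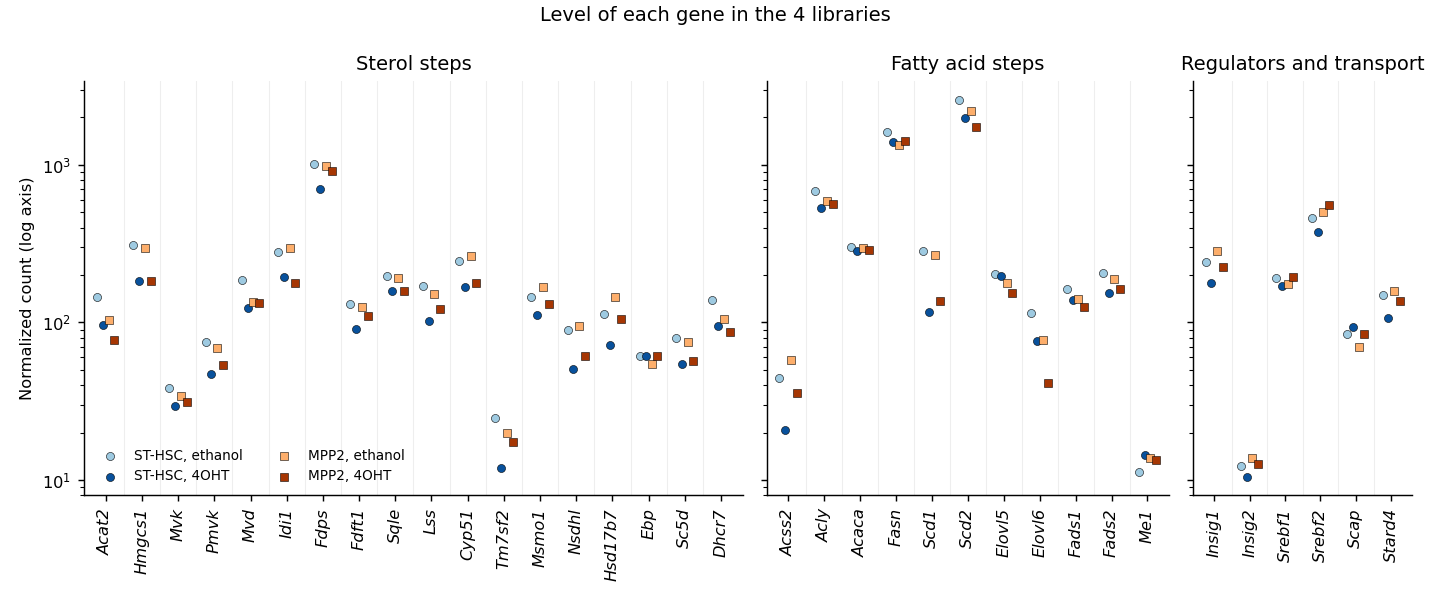
Normalized count (log axis) of each of the 35 genes, where each point is 1 library. In ST-HSC colonies the dark circles (4OHT) lie below the light circles (ethanol) for 33 of 35 genes, and in MPP2 colonies the dark squares lie below the light squares for 30 of 35.

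Summed over its genes, the sterol group had 3446 normalized counts in ST-HSC colonies with ethanol and 2358 with 4OHT, and 3313 and 2655 in MPP2 colonies. The fatty acid group had 6213 and 4913 in ST-HSC colonies, and 5330 and 4684 in MPP2 colonies. Both sums were thus lower with 4OHT in each cell type. The regulators had 1140 and 935 in ST-HSC colonies, but 1202 and 1209 in MPP2 colonies, where the sum was level.

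Among the sterol steps, all 18 genes were below 0 on the log2 scale in ST-HSC (50.6% of all tested genes) and 17 of 18 in MPP2 colonies (50.2%). The exception was Ebp, and its ST-HSC value, log2 -0.0056, turned to 0.02 under scaling by total reads and 0.0083 with DESeq2 size factors. On the log2 scale the group's median was -0.55 (ST-HSC) and -0.33 (MPP2), while the median of all tested genes was -0.0037 and -0.0024. The counting interval lay wholly below 1 for 17 of 18 genes in ST-HSC colonies, as for 20% of all tested genes, and for 14 of 18 in MPP2 colonies, as for 23.9%. Over all 35 genes it lay wholly above 1 for 2 in ST-HSC colonies, Me1 and Scap (18.8% of tested genes), and for 5 in MPP2 colonies (23.9%). Lower values occurred from the first step of the route to the last, as the plot of ratios in pathway order shows.

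**Figure D2:**
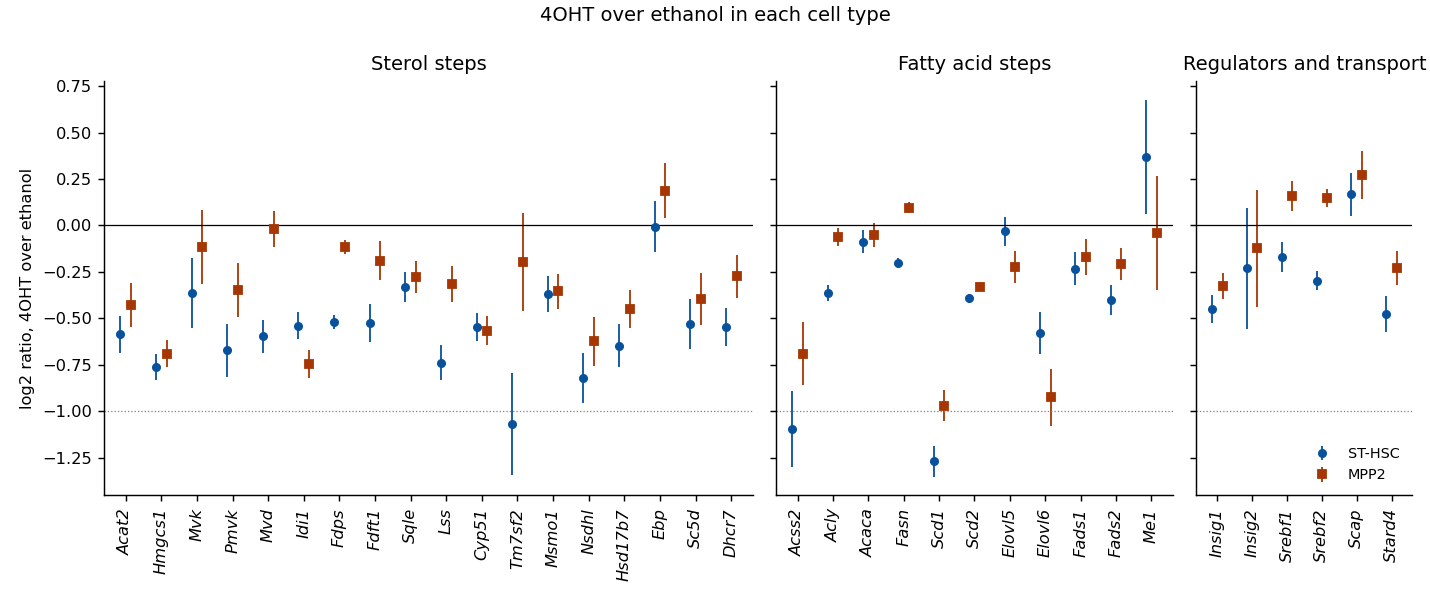
Ratio of 4OHT to ethanol on the log2 scale for each gene in ST-HSC (circles) and MPP2 (squares) colonies, with bars for the 95% counting interval; sterol genes are in pathway order and the dotted line marks a 2-fold lower level. The sterol genes lie below 0 in both cell types apart from Ebp, while Fasn, Srebf1 and Srebf2 lie on opposite sides of 0.

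At the head of the route, Hmgcs1, which makes HMG-CoA, had 309 normalized counts in ST-HSC colonies with ethanol and 183 with 4OHT, and 295 and 183 in MPP2 colonies. Its ratio in ST-HSC colonies was 0.590 (0.562 to 0.620) and in MPP2 colonies 0.620 (0.589 to 0.653), so both cell types had nearly the same difference. Of its exon length 12.1% overlaps Gm48342 on the other strand, and 13.1% of its 31-base sequences occur in other genes. Acat2, the cytosolic thiolase that joins acetyl-CoA units, had 145 and 96.4 in ST-HSC and 104 and 77.3 in MPP2 colonies. Since 43.7% of its 31-base sequences also occur in other genes, mainly its neighbour copy Acat3, its value is uncertain.

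The mevalonate kinases and the steps after them were lower too, with wider gaps between the cell types. Pmvk, phosphomevalonate kinase, had 74.7 and 46.9 normalized counts in ST-HSC and 68.3 and 53.8 in MPP2 colonies. Mvk, mevalonate kinase, was the scarcer of the pair, at 38.2 and 29.7 in ST-HSC and 34.0 and 31.4 in MPP2 colonies. Its MPP2 ratio, 0.923 (0.805 to 1.06), could not be told from 1. Mvd, which forms isopentenyl pyrophosphate, had 186 and 123 in ST-HSC colonies but 134 and 133 in MPP2 colonies, where it was level. Removal of the trend with GC content moved the MPP2 log2 difference of Mvd from -0.02 to -0.22.

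Idi1, the isomerase that balances both isoprene units, was lower in both cell types, with the larger difference in MPP2 colonies. It had 282 and 194 normalized counts in ST-HSC and 297 and 177 in MPP2 colonies (ratio 0.689, 0.656 to 0.723, and 0.597, 0.566 to 0.628). Fdps, which makes farnesyl pyrophosphate, had 1014 and 708 in ST-HSC colonies and 990.4 and 914 in MPP2 colonies. Both carry a limit, since 27.1% of the sequences of Idi1 and 27.9% of those of Fdps occur in other gene models. Of the exon length of Fdps 26.7% also overlaps Gm43738 on the same strand.

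The steps from farnesyl pyrophosphate to lanosterol were lower in both cell types. Fdft1, squalene synthase, had 131 and 91.0 normalized counts in ST-HSC and 124 and 109 in MPP2 colonies. Its exons overlap the lysosomal protease gene Ctsb on the other strand over 18.3% of their length, so its count is uncertain unless strand was used in counting. Sqle, squalene epoxidase, had 198 and 157 in ST-HSC and 191 and 158 in MPP2 colonies, a like difference in each. Lss, which closes the sterol rings, had 170 and 102 in ST-HSC and 151 and 122 in MPP2 colonies.

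After lanosterol, Nsdhl and Cyp51 were lower by similar amounts in both cell types. Cyp51, the demethylase that acts first on lanosterol, had 247 and 169 normalized counts in ST-HSC and 263 and 177 in MPP2 colonies (ratio 0.684, 0.649 to 0.721, and 0.675, 0.640 to 0.712). Nsdhl, which helps remove methyl groups from the ring, had 89.4 and 50.6 in ST-HSC and 94.95 and 61.6 in MPP2 colonies (ratio 0.566, 0.515 to 0.621, and 0.649, 0.593 to 0.710). Its partner Hsd17b7 had 113 and 72.2 in ST-HSC and 144 and 106 in MPP2 colonies. Msmo1, the methyl oxidase before them, had 145 and 112 in ST-HSC and 167 and 130 in MPP2 colonies, again a like difference in each.

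Tm7sf2, a sterol reductase, was the 1 sterol gene at least 2-fold lower, with 24.8 and 11.9 normalized counts in ST-HSC colonies (ratio 0.478, 0.395 to 0.576). In MPP2 colonies it had 19.8 and 17.3 (ratio 0.873, 0.727 to 1.05). It was the scarcest sterol gene, and 12.1% of its exon length overlaps Vps51 on the same strand. Of the last enzymes, Sc5d, a desaturase, had 79.1 and 54.8 in ST-HSC and 74.8 and 56.8 in MPP2 colonies. Dhcr7, which makes cholesterol from its precursor, had 139 and 95.1 in ST-HSC and 105 and 87.0 in MPP2 colonies. Ebp, the isomerase that comes before Sc5d, was an exception, with 61.6 and 61.4 in ST-HSC and 54.1 and 61.6 in MPP2 colonies.

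Among the fatty acid steps Scd1, Acss2 and Elovl6 had the lowest ratios in both cell types, while Acaca and Fasn were nearer to level. The median of the 11 genes was -0.36 (ST-HSC) and -0.21 (MPP2) on the log2 scale. In either cell type 10 of 11 were below 0, as were 50.6% (ST-HSC) and 50.2% (MPP2) of all tested genes. The counting interval lay wholly below 1 for 9 of 11 in ST-HSC (20% of all tested genes) and for 8 of 11 in MPP2 colonies (23.9%).

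Scd1, which puts the first double bond into saturated fatty acids, had the lowest ratio of all 35 genes in both cell types. It lies on the minus strand of GRCm38 at chr19:44394455-44407879 (GENCODE M21). It had 282 normalized counts in ST-HSC colonies with ethanol and 117 with 4OHT, and 268 and 137 in MPP2 colonies. The ratio in ST-HSC colonies was 0.415 (0.392 to 0.440) and in MPP2 colonies 0.510 (0.482 to 0.541), just inside 2-fold. Its paralogue Scd2, the most abundant gene of the list by count, differed less, with 2586 and 1971 in ST-HSC and 2184 and 1739 in MPP2 colonies. The genes share 6.81% to 8.18% of their sequences with others of the Scd family.

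Acss2, the enzyme that turns acetate into acetyl-CoA, had 44.2 and 20.7 normalized counts in ST-HSC colonies and 57.6 and 35.7 in MPP2 colonies (ratio 0.469, 0.406 to 0.540, and 0.620, 0.551 to 0.697). Acly, which makes it from citrate and is far more abundant, had 687 and 534 in ST-HSC and 586 and 561 in MPP2 colonies. The gene for the acetate route was thus further below its ethanol level than the gene for the citrate route in each cell type. Elovl6, which lengthens saturated fatty acids, had 114 and 76.5 in ST-HSC and 77.8 and 41.0 in MPP2 colonies (ratio 0.669, 0.619 to 0.723, and 0.527, 0.473 to 0.586). Elovl5, which lengthens polyunsaturated fatty acids, had 202 and 198 in ST-HSC colonies, a ratio whose interval (0.928 to 1.03) holds 1, and 179 and 153 in MPP2 colonies.

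In the core of fatty acid synthesis Acaca was close to level in both cell types, while Fasn was a little lower in ST-HSC colonies (ratio 0.868, 0.852 to 0.885). Acaca, acetyl-CoA carboxylase, had 303 and 285 normalized counts in ST-HSC and 298 and 287 in MPP2 colonies, with 33.5% of its sequences shared with other gene models. Its MPP2 log2 difference went from -0.05 to 0.02 once the GC trend was removed. Fasn, fatty acid synthase, had 1617 and 1404 in ST-HSC colonies but 1337 and 1428 in MPP2 colonies. Its log2 difference was -0.20 in ST-HSC and 0.09 in MPP2 colonies, and the latter became -0.10 once the GC trend was removed, so its direction in MPP2 colonies is not settled.

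The desaturases of polyunsaturated fatty acids were a little lower. Fads1 had 162 and 138 normalized counts in ST-HSC and 141 and 126 in MPP2 colonies. Fads2 had 205 and 155 in ST-HSC and 189 and 163 in MPP2 colonies. Me1, malic enzyme, which supplies NADPH for synthesis, was scarce and went the other way in ST-HSC colonies, with 11.2 and 14.4 (ratio 1.29, 1.04 to 1.60). In MPP2 colonies Me1 had 13.8 and 13.4. The value is uncertain, since 36.9% of its sequences occur in other gene models.

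The regulators had no common direction. In ST-HSC colonies 5 of 6 were below 0 (50.6% of all tested genes), with a median log2 difference of -0.26. In MPP2 colonies 3 of 6 were below 0 (50.2%), with a median of 0.01. That median became -0.05 under scaling by total reads and -0.05 with the GC trend removed. Insig1, which holds SCAP back and is itself a target of SREBP, had 241 and 177 normalized counts in ST-HSC and 284 and 226 in MPP2 colonies (ratio 0.733, 0.696 to 0.772, and 0.797, 0.759 to 0.837). Insig2, its scarce relative, had 12.3 and 10.5 in ST-HSC and 13.7 and 12.6 in MPP2 colonies, and both intervals hold 1. Stard4, a carrier of cholesterol inside the cell, had 149 and 107 in ST-HSC and 159 and 136 in MPP2 colonies. Insig1 and Stard4 thus stood lower in both cell types.

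The genes of the SREBP factors themselves differed in sign between the cell types. Srebf2, for the factor that mainly drives sterol genes, had 463 and 376.5 normalized counts in ST-HSC colonies (ratio 0.814, 0.785 to 0.844) and 501 and 555 in MPP2 colonies (ratio 1.11, 1.07 to 1.15). Srebf1, for the factor that mainly drives fatty acid genes, had 191 and 170 in ST-HSC (ratio 0.889, 0.841 to 0.939) and 175 and 195 in MPP2 colonies (ratio 1.12, 1.05 to 1.18). With the GC trend removed the MPP2 log2 differences of Srebf2 and Srebf1 were 0.01 and -0.05, in place of 0.15 and 0.16. Scap was higher with 4OHT in both, at 83.9 and 94.1 in ST-HSC and 69.5 and 83.9 in MPP2 colonies (ratio 1.12, 1.04 to 1.21, and 1.21, 1.11 to 1.32). Of its exon length 13.2% overlaps 5830462I19Rik on the other strand, so its count is uncertain unless strand was used in counting. In MPP2 colonies, then, sterol genes stood lower while Srebf2 and Scap did not.

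The effect of 4OHT shared by both cell types was tested with limma, using terms for cell type and for treatment, which leaves 1 residual degree of freedom per gene. That residual holds the difference of the 4OHT effect between the cell types, so such a difference enters the SE and p-value as spread. The p-values do not measure the spread between animals. Nothing in the labels says that the 4 libraries came from separate animals. By this test 0 of the 35 genes passed an adjusted p of 0.05 in either direction, and of all 11370 tested genes 1 was called lower (0.0088%) and 5 higher (0.044%). The lowest adjusted p in the list was that of Scd1, with a shared log2 effect of -1.12 (SE 0.14, limma adjusted p = 0.084, lower in 2 of 2 cell types). At an unadjusted p under 0.05 limma put 17 of the 35 genes lower and 0 higher, against 7.19% and 7.02% of all tested genes. These 17 were 12 sterol genes, 4 fatty acid genes and 1 regulator.

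Other tools on the same model called more genes. With a trend of variance on expression limma called 14 of the 35 lower (2.3% of all tested genes), edgeR's quasi-likelihood test on recovered reads 12 (1.86%) and DESeq2 7 (0.361%). None of these called any of the 35 higher. The 7 genes called by all 3 were Acss2, Cyp51, Elovl6, Hmgcs1, Idi1, Nsdhl and Scd1. The adjusted p of Scd1 ran from 3.5e-10 with DESeq2 to 0.213 with limma without an expression filter, so whether the shared difference passes the threshold depends on the tool and filter.

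For 30 of the 35 genes the log2 difference was lower in ST-HSC than in MPP2 colonies. Over all tested genes 5488 of 11370 had the lower log2 difference in ST-HSC colonies. The difference between cell types could not be tested, as the model with that term has no residual degrees of freedom. Tm7sf2 (log2 -1.04 and -0.19), Mvd (-0.59 and -0.02) and Srebf2 (-0.30 and 0.15) had the widest gaps on this side. On the other side, Me1 (0.35 and -0.04), Elovl6 (-0.58 and -0.92), Idi1 (-0.54 and -0.74) and Elovl5 (-0.03 and -0.22) were lower relative to ethanol in MPP2 colonies, and Cyp51 was nearly even (-0.55 and -0.57). Across the 35 genes the differences in the 2 cell types had a Pearson correlation of 0.71 and a Spearman correlation of 0.74. Within the groups these were 0.47 and 0.44 (18 sterol genes), 0.81 and 0.79 (11 fatty acid genes), and 0.82 and 0.89 (6 regulators). All are descriptions across genes that share 4 libraries and are not independent.

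**Figure D3:**
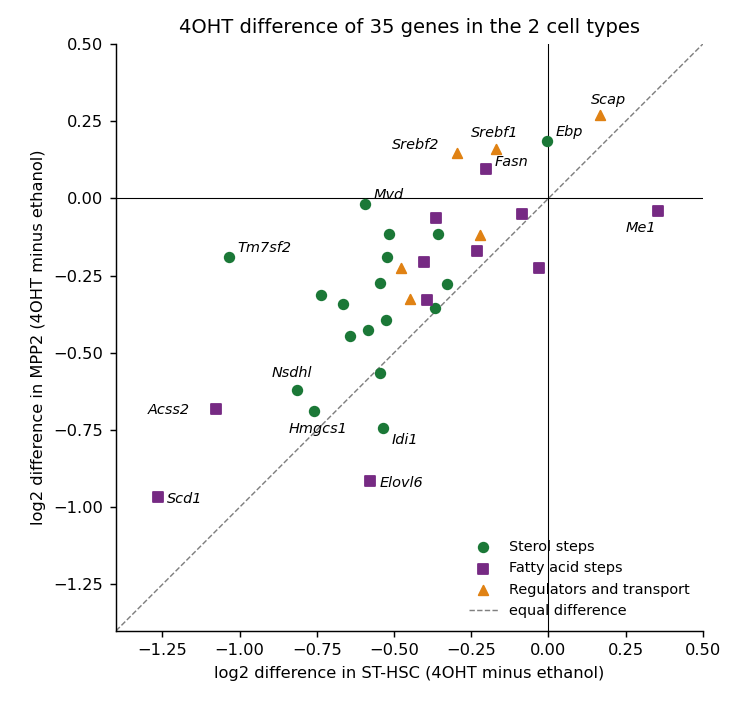
Log2 difference (4OHT minus ethanol) of the 35 genes in ST-HSC (horizontal) against MPP2 colonies (vertical), where each point is 1 gene and the dashed line marks an equal difference. The 30 genes above the line had the lower value in ST-HSC colonies, and Scd1 lies lowest on both axes.

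Between the cell types the 35 genes differed little. With ethanol 24 of 35 were lower in MPP2 colonies (54% of tested genes) and 11 higher (46%), and with 4OHT 9 were lower (51.8%) and 26 higher (48.2%). In ethanol, log2 differences of MPP2 minus ST-HSC ran from -0.55 to 0.38 with a median of -0.08, and under 4OHT from -0.89 to 0.77 with a median of 0.08. None of the 35 was 2-fold apart in either, where 0.862% of tested genes were at least 2-fold lower and 6.27% higher in MPP2 colonies with ethanol, and 1.71% and 5.39% with 4OHT. The shared cell type effect passed the limma test for 1 of the 35, against 5.31% of tested genes called lower and 9.88% called higher. That gene was Elovl6, lower in MPP2 colonies in 2 of 2 treatments (log2 -0.72, SE 0.15, limma adjusted p = 0.041). Its adjusted p ran from 0.00038 to 0.077 over the alternatives and was above 0.05 under 4 of them, namely no filter, an added constant of 0.1 and both other scalings. At an unadjusted p under 0.05 limma put 2 of the 35 lower (18.6% of tested genes) and 2 higher (19.1%). The highest positive effect was that of Acss2, at log2 0.58 (SE 0.15), with a limma adjusted p of 0.066.

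Per length, Fdps stood highest of the 35 genes, with a mean over the 4 libraries of 656 normalized counts per kb of its principal transcript. That value carries the limits given above for the count of Fdps. Scd2 followed at 389, Fasn at 144 and Acly at 135. Srebf2 (93.3) and Insig1 (86.1) led the regulators. At the low end were Me1 (4.02), Insig2 (4.55) and Tm7sf2 (12.6). The lowest ratios were thus not those of the most abundant genes, as Acss2 had a mean of 13.5 and Scd1 of 41.6.

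Markers of several types of maturing blood cell, but not of all, also differed with 4OHT. All 12 monocyte and macrophage markers were detected in all 4 libraries. In ST-HSC colonies 11 of 12 were above 0 (49.3% of all tested genes) and in MPP2 colonies 10 of 12 (49.7%). Itgam was below 0 in ST-HSC colonies (log2 -0.09), and Ccr2 (-0.76) and Cd14 (-0.06) in MPP2 colonies. Their summed normalized counts were 2094 with ethanol and 3315 with 4OHT in ST-HSC and 3387 and 5329 in MPP2 colonies. Lyz2 alone held 1113 and 1924 of these in ST-HSC and 1692 and 2768 in MPP2 colonies. The 11 neutrophil markers summed to 32639 and 24385 in ST-HSC colonies, where 10 of 11 were below 0 (50.6% of all tested genes). In MPP2 colonies they summed to 44009 and 42935, and 4 of 11 were below 0 (50.2%). Mast cell and basophil markers other than Kit summed to 139 and 74.2 in ST-HSC colonies and to 1600.3 and 516 in MPP2 colonies, while Kit was higher with 4OHT in both. With Kit, 5 of the 11 tested were at least 2-fold lower in ST-HSC (0.545% of all tested genes) and 8 in MPP2 colonies (1.7%). Tpsb2 and Mcpt4 had 0 reads in both ST-HSC libraries. In MPP2 colonies 4 of 6 tested erythroid and 3 of 5 tested eosinophil markers were at least 2-fold lower, and in ST-HSC colonies none of either list was. The 7 megakaryocyte markers were nearer to level, with median log2 differences of -0.06 (ST-HSC) and -0.16 (MPP2). They summed to 21.6 and 27.1 in ST-HSC and 467 and 441 in MPP2 colonies, and 4 of 7 were below 0 in each (50.6% and 50.2% of all tested genes).

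The 8 proliferation markers summed to 2816 and 2259 (ST-HSC) and 2690 and 2393 (MPP2). Mki67 (593 and 317) and Top2a (612 and 462) made up most of the ST-HSC difference, while Ccnb1, Cdk1 and Mcm2 were level there at log2 0.06, 0.06 and 0.0090. Of these 8 markers, 5 were below 0 in ST-HSC (50.6% of all tested genes) and 7 in MPP2 colonies (50.2%), with 5 in both (31.4%). The 10 interferon response genes summed to 93.1 and 244 (ST-HSC) and 129 and 214 (MPP2). The stem and progenitor markers went both ways. In ST-HSC colonies 2 of 8 tested were at least 2-fold higher (2.1% of all tested genes), Cd34 (log2 1.14) and Ly6a (1.13), and Gata2 was at -0.81. In MPP2 colonies Gata2 was at -1.52, Cd34 at -0.23 and Ly6a at 0.37. Slamf1 had 0 reads in both ST-HSC libraries, and Flt3 and Mecom were under 1 normalized count in all 4. The part of these differences in the sterol and fatty acid values was not tested, and fewer cells of a type cannot be told apart here from less RNA per cell.

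Genes around the routes were compared by lists chosen with earlier results of these data known. Other genes driven by SREBP were the nearest in behaviour, with medians of -0.36 (ST-HSC) and -0.23 (MPP2) on the log2 scale. Of these, 5 of 7 were below 0 in both, against 31.4% of all tested genes. Lpin1, a phosphatidate phosphatase, had 23.6 and 13.0 normalized counts in ST-HSC and 27.6 and 21.8 in MPP2 colonies. Aacs, which activates acetoacetate, had 187 and 151 in ST-HSC and 171 and 169 in MPP2 colonies. Gpam, which starts glycerolipid synthesis, had 11.1 and 15.95 in ST-HSC and 9.67 and 8.83 in MPP2 colonies.

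Genes that process SREBP or sense sterols had medians of 0.01 in ST-HSC and 0.0017 in MPP2 colonies. Rnf139, a ubiquitin ligase of the endoplasmic reticulum, had the lowest mean difference among its genes that reach 10 normalized counts, with 46.2 and 44.9 normalized counts in ST-HSC and 51.1 and 41.2 in MPP2 colonies. The 13 genes that draw isoprenoids off the mevalonate route had medians of 0.0044 in ST-HSC and -0.07 in MPP2 colonies. Ggps1, which makes geranylgeranyl pyrophosphate, had 15.4 and 16.7 in ST-HSC and 16.8 and 10.7 in MPP2 colonies. Fntb, a subunit of farnesyltransferase, had 12.7 and 14.5 in ST-HSC and 8.95 and 11.8 in MPP2 colonies, and Zmpste24, which trims farnesylated proteins, was the most abundant at 153 to 236. Neither list, then, lay low as a whole.

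Other genes of fatty acid synthesis, of which 16 of 17 passed the filter, had medians of -0.06 and -0.01. Slc25a1, which exports citrate from mitochondria, had 127 and 110 normalized counts in ST-HSC and 103 and 89.6 in MPP2 colonies. Elovl1, an elongase of very long chains, had 141 and 157, and 136 and 150.2. Tecr, which completes each elongation cycle, had 168 and 149, and 162 and 163. Fatty acid oxidation, the opposite route, was near level, with medians of -0.03 and 0.07 over 16 genes. Cpt1a, which admits fatty acids to mitochondria, had 109 and 119, and 113 and 129.6. Etfb (156 and 141, then 112 and 128) and Etfdh (33.9 and 31.05, then 31.5 and 29.2), electron carriers of oxidation, differed in that Etfdh was slightly lower in both cell types and Etfb changed sign.

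Genes of sterol esters and oxysterols went both ways, with medians of 0.26 and 0.29 over the 5 of 7 that passed the filter, of which 4 were above 0 in ST-HSC and 3 in MPP2 colonies. Soat2, the relative of Soat1, was scarce and lower in both, with 1.46 and 0.647 normalized counts in ST-HSC and 2.96 and 2.01 in MPP2 colonies. It is named after its values were seen, as is Lipa, the lysosomal lipase, at log2 0.38 and 0.40. Soat1, which esterifies cholesterol for storage, had 286 and 321 normalized counts in ST-HSC and 264 and 323 in MPP2 colonies. Ch25h, which makes an oxysterol that restrains SREBP and is inducible by interferon, had 2.09 and 6.47 in ST-HSC and 6.13 and 10.2 in MPP2 colonies (ratio 3.10, 2.03 to 4.86, and 1.66, 1.25 to 2.21). After the added constant it was the 1 of the 65 tested genes of these 6 lists at least 2-fold higher in ST-HSC colonies (1.54%, against 2.1% of all tested genes). The interferon response genes were also higher with 4OHT, whose part in this value was not tested. Nceh1, which splits cholesterol esters, had 57.4 and 68.6 in ST-HSC and 102 and 91.3 in MPP2 colonies. By the limma test of the shared 4OHT effect none of the genes in these 6 lists passed in either direction, while at an unadjusted p under 0.05 6 of the 65 tested genes were lower (9.23%, against 7.19% of all tested genes) and 2 higher (3.08%, against 7.02%).

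**Figure D4:**
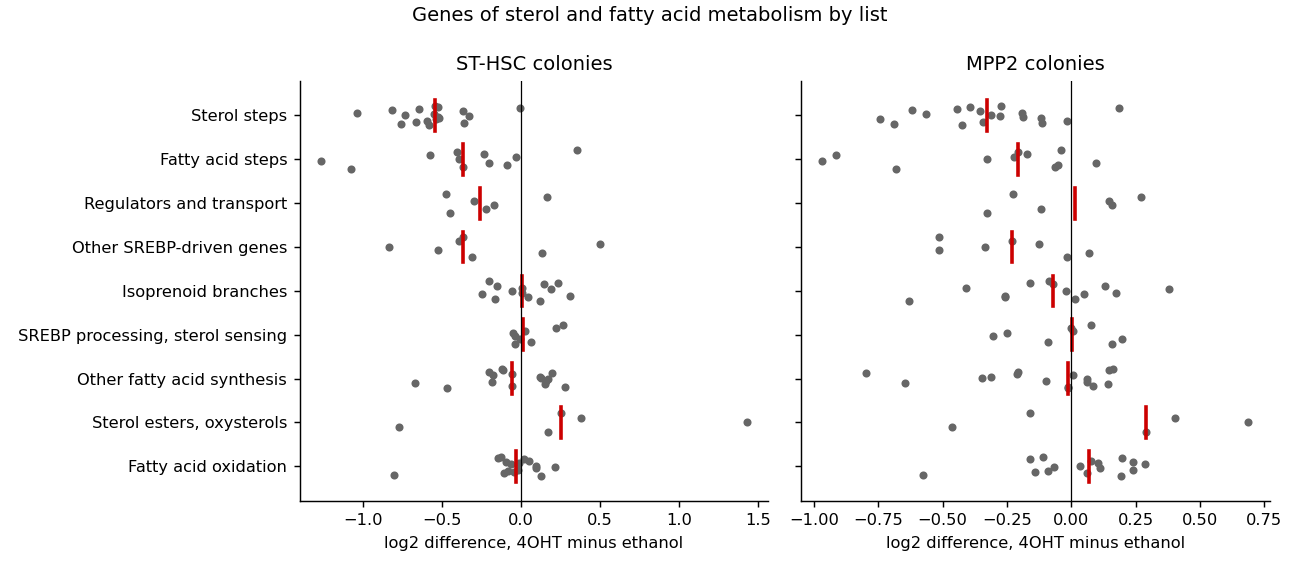
Log2 difference (4OHT minus ethanol) in ST-HSC (left) and MPP2 colonies (right) for 9 lists of sterol and fatty acid genes, where each point is 1 gene and the red bar is the list's median. Sterol steps have the lowest median in both panels (-0.55 and -0.33), and sterol esters and oxysterols the highest (0.26 and 0.29).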

How the data were processed

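RNA was sequenced from 4 cultures, 1 per combination of cell type and treatment. Per the submitters' processing notes the tools were Trimmomatic 0.36, Bowtie2, RSEM and edgeR, with the build mm10, given without role or order. The deposited signal is a normalized count per gene, which equals the CPM that edgeR gives after TMM scaling, and all 57292 values came out as whole reads within 1e-06. The strand setting of the counting is not given in the sources used here.

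Genes with a mean normalized count of at least 1 (11370 of 14323) were analysed as log2(value + 0.5), a scale that understates the change of low genes. The shared effects were tested over all of them with limma 3.58.1 and Benjamini-Hochberg adjustment at 0.05; edgeR 4.0.16 and DESeq2 1.42.0 on recovered reads, other scalings, constants, filters, a variance trend and removal of a GC trend were alternatives. The limma step was run on simulated data with the same 4OHT effect in both cell types, and the outcome is not given here. In the real fit the residual holds the cell-type difference of that effect, so the simulation does not cover it. Ratios have exact conditional binomial 95% intervals; 1 read was worth 0.0695 to 0.0802 normalized counts. The 35 genes and all lists were chosen with earlier results of these data known. All 35 are named, and of each other list, among genes that reach a normalized count of 10 in a library, those with the lowest and highest mean 4OHT difference and the highest level, some of which are not reported here. Gene positions and shared sequences are from GENCODE M21, and promoters from RefSeq (GRCm38.p6).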

Additional observations from a re-analysis of the deposited data

Results flagged for a closer look

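The log2 difference of 4OHT minus ethanol had opposite signs in ST-HSC and MPP2 colonies for 5 of the 35 genes (14.3%, against 38.1% of all tested genes), and the difference between the cell types was not tested. It was -0.20 and 0.094 for Fasn, -0.17 and 0.16 for Srebf1, -0.30 and 0.15 for Srebf2, -0.0056 and 0.19 for Ebp, and 0.35 and -0.039 for Me1, with the ST-HSC value first. The counting interval of the ratio held 1 for Ebp in ST-HSC and for Me1 in MPP2 colonies, and in neither cell type for Fasn, Srebf1 and Srebf2. Among the named genes of the other lists the values were 0.12 and -0.63 for Ggps1, 0.50 and -0.12 for Gpam, -0.18 and 0.0086 for Tecr, 0.26 and -0.16 for Nceh1, and -0.15 and 0.20 for Etfb, also untested. Of these, Nceh1 and Etfb had intervals that exclude 1 in both cell types.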

How the results depend on the processing

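No paired analysis was possible because each group has 1 library and the labels give no replicate numbers; leaving out a library leaves the additive model no residual degrees of freedom. The cause of the changes below was not tested. Of the 35 genes, 0 were 2-fold lower in MPP2 colonies in the main analysis, and 1 under scaling by total reads and 1 with the GC trend removed; the regulators' median there went from 0.015 to -0.050 and -0.045. Genes 2-fold lower in ST-HSC colonies were 62, but 30 with a constant of 1, 108 with 0.1 and 30 with a mean of at least 5; that filter also gave 125 in place of 239 higher, and in MPP2 colonies 79 in place of 193 lower and 83 in place of 150 higher. Calls of the shared 4OHT effect (1 lower, 5 higher) were 0 and 0 under total reads, DESeq2 size factors, a constant of 0.1, no filter or GC removal, 19 and 73 with a constant of 1, 68 and 162 with a mean of at least 5, 261 and 337 with the limma trend, 211 and 281 with edgeR and 41 and 117 with DESeq2. Among the 35 genes, 0 called lower became 1 with a constant of 1, 5 with a mean of at least 5, 14 with the trend, 12 with edgeR and 7 with DESeq2. For cell type, 1 of the 35 called lower became 0 under total reads, size factors, a constant of 0.1 or no filter, and 2 with the trend or edgeR; 0 called higher became 1 with a constant of 1, 2 with a mean of at least 5, 3 with the trend, 2 with edgeR and 1 with DESeq2. Over all genes 604 lower became 394 with size factors, 964 with a constant of 1, 178 with 0.1, 69 without a filter, 1395 with a mean of at least 5, 1862 with the trend and 1589 with edgeR, and 1123 higher became 674 with 0.1, 490 without a filter, 1899 with the trend and 1873 with edgeR. The sign turned for Fasn (-0.10) and Srebf1 (-0.048), and from below 0 for Acaca (0.025), in MPP2 colonies with GC removed, for Ebp in ST-HSC colonies under total reads (0.016) and size factors (0.0083), and for the shared effect of Srebf1 with size factors (0.00014) and DESeq2 (0.0047).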
